A study of Mus musculus with 21 samples.

Results

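The difference between *Arntl*-deleted and control IgA+ plasma cells (PCs) at lights on was examined across 20256 genes. The data were 10 libraries of sort-purified IgA+ PCs, out of 21 in the series, which the study describes as individual animals. At zeitgeber time 0 (ZT0, the hour of lights on) there were 6 control mice, Mb1Cre-/- x Arntlfl/fl, and 4 KO mice, Mb1Cre+/- x Arntlfl/fl, all on the C57BL/6 background. Both groups carried the floxed *Arntl* allele and differ by their labels in the Cre. The mice were littermates of mixed genotype that were housed together, and their age is not analysed here. The other 11 mice, 6 control and 5 KO, were sampled at ZT12 (lights off), and are used here only to set the same genes at another hour beside the ZT0 values. None of them is a ZT0 mouse. The groups were taken from the sample titles, because the genotype field of 3 of the 4 KO samples at ZT0 names the control genotype.

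IgA+ PCs are the antibody-secreting cells of the gut wall, sorted here from the small intestinal lamina propria as cells with CD138 and IgA on their surface. Bmal1, the product of *Arntl*, pairs with CLOCK and binds E-box DNA (CACGTG) to switch on the *Per*, *Cry*, *Nr1d1* and *Nr1d2* genes. PER and CRY proteins then block the Bmal1 and CLOCK pair, while the nuclear receptors REV-ERBα (*Nr1d1*) and REV-ERBβ (*Nr1d2*) repress *Arntl* through AGGTCA elements, which closes the loops of the cell-intrinsic clock. Cre was expressed from the *Mb1* locus (*Cd79a*), which is active from early B cell development, so deletion takes place in the B cell lineage and not in PCs alone.

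Between 14471018 and 18382101 reads per ZT0 mouse were counted on genes. Levels are given as CPM (counts scaled by library depth) after TMM scaling, and fold changes as the fitted log2 difference of KO against control with its standard error (SE), where a positive value means higher in KO. A gene was called when its adjusted p (edgeR's quasi-likelihood test, Benjamini-Hochberg over all 20256 genes) was under 0.05. The sorted cells had the markers of PCs, with mean levels in control and KO mice of 275540 and 297710 CPM for *Igha*, 47685 and 45150 CPM for *Jchain* and 629.5 and 573.5 CPM for *Sdc1*, the gene of CD138. Some markers of other cells were low. Mean levels in control and KO mice were 0.33 and 0.47 CPM for *Cd3e* (T cells) and 1.83 and 1.30 CPM for *Ms4a1* (B cells). For *Itgax* (dendritic cells) they were 5.15 and 4.95 CPM. Other listed markers had higher means, such as *Cd4* (13.5 and 19.8 CPM), *Ebf1* (12.5 and 7.96 CPM) and *Prg2* (63.6 and 100.7 CPM). These belong to the lists of T cells, other B cells and myeloid cells. The list of other B cells summed to 134.7 to 164.1 CPM in control and 130.9 to 175.4 CPM in KO mice. Epithelial markers, summed, lay between 57.1 and 95.6 CPM in 5 control mice, at 387.5 CPM in control replicate 6 and between 84.3 and 105.5 CPM in the KO mice. KO replicate 3 stood apart and is given separately below. It had both *Xist*, at 427.7 CPM, and Y chromosome genes, summed at 35.3 CPM or 20.7% of the median of the mice without *Xist*, a combination seen in no other ZT0 mouse. It also had the highest immunoglobulin share (59.4% of counts, against 53.6% to 53.7% in the other KO mice) and the highest *Arntl* level of the KO group. Its values are in the results that follow unless it is stated that it was left out. Whether that library holds RNA of more than 1 mouse was not tested, and it is counted here as 1 KO mouse.

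Deletion at the target was examined first. *Arntl* (ENSMUSG00000055116, chr7:113207465-113314126 of GRCm38, plus strand) was at 4.51, 4.08, 6.47 and 4.42 CPM in KO replicates 1 to 4, and at 6.83 to 8.36 CPM in control mice, with a median of 7.92 CPM. Every KO mouse was below every control mouse, and KO replicate 3 was nearest to them. The KO mean was 62.4% of the control mean, a log2 fold change of -0.68 (SE 0.17). This passed the exact permutation test over mice (two-sided, p = 0.00476, the smallest that 4 against 6 mice can give) but not the adjustment over all genes (adjusted p = 0.926, edgeR). Without KO replicate 3 the log2 fold change was -0.84 (adjusted p = 0.371, edgeR). The counts, 64 to 158 per mouse, cover the whole gene, including exons outside the floxed part, so they do not measure the deleted part alone. At ZT12, where *Arntl* in control mice was at 4.00 to 5.56 CPM, the groups overlapped and the log2 fold change was -0.23 (SE 0.16, adjusted p = 0.678, edgeR).

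*Cd79a* (chr7:24897381-24902197), which encodes the Igα chain of the B cell receptor and carries the Cre insertion, bears on the genotype labels through a gene other than the target. It was at 163.4, 276.1, 230.8 and 205.1 CPM in the KO mice and at 385.8 to 586.3 CPM in control mice (median 523.5 CPM). All 4 KO mice lay below all 6 control mice, each at less than the lowest control level. *Cd79a* fell by 1.21 on the log2 scale (SE 0.15, adjusted p = 9.08e-05, edgeR), to 43.4% of the control mean, and by 1.18 (SE 0.14, adjusted p = 2.87e-05, edgeR) at ZT12. *Cd79b*, the partner chain encoded on another chromosome, had a log2 fold change of 0.04 (SE 0.11, adjusted p = 0.986, edgeR).

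**Figure D1:**
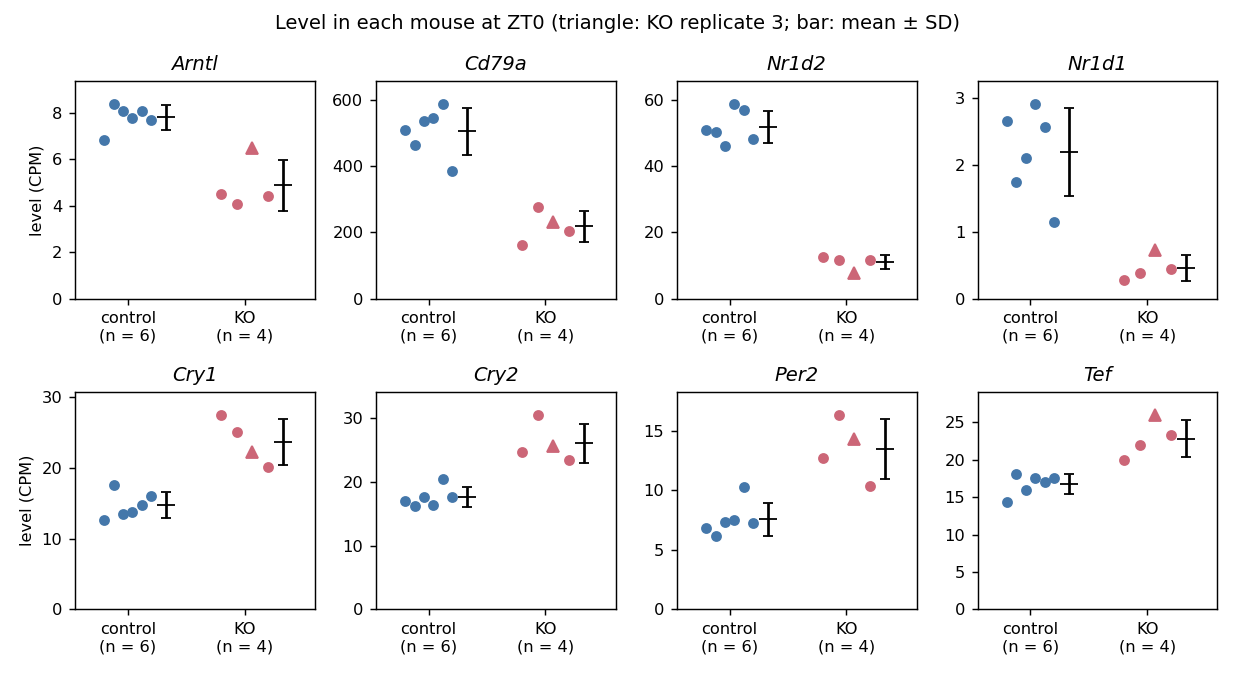
Level (CPM, linear axis from 0) of the targeted gene, the Cre-carrying gene and 6 clock genes in each of the 6 control and 4 KO mice at ZT0, where points are mice, triangles mark KO replicate 3 and bars show the mean ± SD. In all 8 genes every KO mouse lies outside the range of the control mice, from 7.80 to 12.6 CPM against 46.1 to 58.6 CPM for *Nr1d2*. The genes drawn are a selection, and the groups did not overlap for 0.977% of all genes. Clock genes with overlapping groups, such as *Per1*, *Per3*, *Clock* and *Dbp*, are not drawn.

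Across the transcriptome few genes were called at lights on. In simulated data 200 genes were changed, all outside the immunoglobulin genes and with counts well above the filter, and no mouse stood apart. Among these the test found 12 of 66 changes of 0.5 on the log2 scale and 52 of 67 changes of 1. Changes of 0.5 were thus mostly missed, so the count of calls is not the number of genes that differ. The share found among genes with low counts was not tested. At ZT0 the test called 2 of 20256 genes (0.00987%), *Nr1d2* and *Cd79a*, both lower in KO, and 0 genes higher. At an unadjusted p under 0.05 there were 539 genes higher (2.66%) and 454 lower (2.24%) in KO, together 993 (4.9%). Without KO replicate 3 edgeR called the same 2 genes, and 485 (2.39%) passed an unadjusted p of 0.05. Groups of mice did not overlap for 198 genes (0.977%), 102 of them higher (0.504%) and 96 lower (0.474%) in KO. DESeq2, the tool of the study, called 5 genes of the 20207 for which it gave an adjusted p (0.0247%) in a fit of all mice, adding *Cry1*, *Cry2* and *Kcnn4*, and gave 845 (4.18%) an unadjusted p under 0.05. In the mice at ZT12 edgeR called 3 genes (0.0148%), *Nr1d2*, *Cd79a* and the V gene *Ighv1-38*. There were 861 higher (4.25%) and 928 lower (4.58%) at an unadjusted p under 0.05 at that time. DESeq2 called 8 (0.0574%) at ZT12, among them also *Nr1d1* and *Slc1a5*. In a fit of the 10 ZT0 mice alone DESeq2 called 22 genes, among them also *Arntl*, *Nr1d1* and *Per2*, and edgeR called 5, which were *Cd79a*, *Nr1d2*, *Nr1d1*, *Cry1* and *Cry2*.

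**Figure D2:**
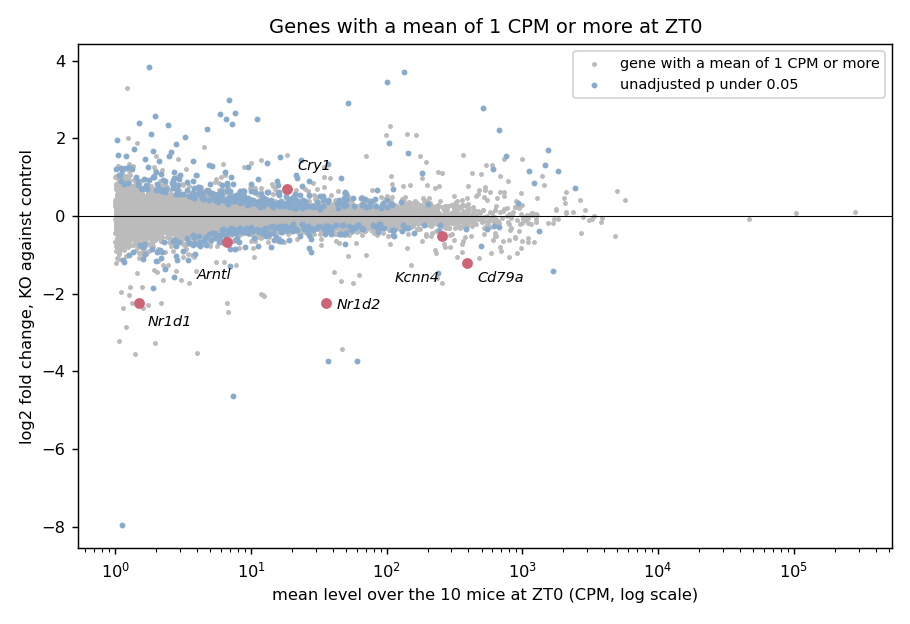
Log2 fold change of KO against control at ZT0 (vertical axis) against the mean level over the 10 ZT0 mice (CPM, log axis) for the 11510 genes with a mean of 1 CPM or more, with genes at an unadjusted p under 0.05 in blue and 6 named genes in red. *Nr1d2* and *Cd79a*, the called genes, lie at -2.24 and -1.21.

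The REV-ERB receptors had the largest difference of the clock genes. *Nr1d2* (ENSMUSG00000021775, chr14:18204054-18239127, minus strand) was at 12.6, 11.7, 7.80 and 11.8 CPM in the KO mice, against 46.1 to 58.6 CPM (median 50.6 CPM) in control mice. The KO mice were close to each other and far below the lowest control mouse, with KO replicate 3 lowest. *Nr1d2* fell by 2.24 on the log2 scale (SE 0.14, adjusted p = 8.82e-11, edgeR), to 21.2% of the control mean, and by 2.11 (adjusted p = 4.40e-10, edgeR) without KO replicate 3. As these are bulk libraries, a lower level in each cell and fewer cells with the transcript cannot be told apart. In the separate mice at ZT12 it fell by 2.55 (SE 0.13, adjusted p = 6.07e-13, edgeR), from 52.1 to 73.5 CPM in control mice to 8.69 to 13.5 CPM in KO mice. The effects at the 2 times differed by 0.31 (SE 0.18, adjusted p = 0.513, edgeR).

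*Nr1d1* (chr11:98767932-98775333), the gene of REV-ERBα, was at 0.275, 0.383, 0.734 and 0.447 CPM in KO mice and at 1.146 to 2.90 CPM (median 2.33 CPM) in control mice. The groups did not overlap at ZT0, but these levels rest on 5 to 11 counts in a KO mouse and 22 to 47 in a control mouse. The log2 fold change was -2.24 (SE 0.54, adjusted p = 0.926, edgeR), and -2.07 (SE 0.45) at ZT12, where the groups overlapped. By DESeq2 the adjusted p of *Nr1d1* was 0.0540 at ZT0 and 0.00457 at ZT12. *Nr1d1* overlaps *Thra*, a thyroid hormone receptor gene on the opposite strand. Since it is not known whether reads were counted by strand, reads of the pair cannot be separated, and *Thra* itself had a log2 fold change of -1.02 (adjusted p = 0.926, edgeR). *Rora*, a receptor that activates *Arntl* through the same elements, was at 2.80 to 7.66 CPM in KO and 4.89 to 8.89 CPM in control mice with a log2 fold change of -0.35 (SE 0.47). Of the 4 nuclear receptor genes tested, 2 (50%) had an unadjusted p under 0.05, both lower, where 2.24% of all genes did so.

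The cryptochromes and *Per2* had higher levels in KO mice at ZT0, though edgeR called none of them. *Cry1* (chr10:85131700-85185064), whose protein represses the Bmal1 and CLOCK pair, was at 27.5, 25.1, 22.2 and 20.1 CPM in KO mice and at 12.6 to 17.6 CPM (median 14.3 CPM) in control mice. The KO mean was 1.61 times the control mean, a log2 fold change of 0.69 (SE 0.13). Over all genes its adjusted p was 0.0656 by edgeR and 0.00384 by DESeq2. *Cry2* (chr2:92403646-92434043), its paralog, was at 24.7, 30.5, 25.7 and 23.5 CPM in KO and at 16.2 to 20.5 CPM (median 17.3 CPM) in control mice. Its log2 fold change was 0.57 (SE 0.12, adjusted p = 0.254 by edgeR and 0.0235 by DESeq2). For both genes all KO mice were above all control mice, also at ZT12, where the log2 fold changes were 0.45 (SE 0.12) and 0.40 (SE 0.11). Neither effect differed between the times by the test of the difference (adjusted p = 0.618 and 0.722, edgeR), and leaving out KO replicate 3 gave 0.72 and 0.58 at ZT0.

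*Per2*, the period gene that is also an early target of the pair, was at 12.7, 16.3, 14.3 and 10.4 CPM in KO and at 6.19 to 10.3 CPM (median 7.31 CPM) in control mice. KO replicate 4 was just above the highest control mouse. Its log2 fold change was 0.83 (SE 0.26, adjusted p = 0.926, edgeR) at ZT0 and 0.12 (SE 0.24) at ZT12, a difference between the times of 0.71 (SE 0.36, adjusted p = 0.476, edgeR). The other period genes overlapped between the groups. *Per1*, at 159.9 to 230.0 CPM in KO and 128.9 to 223.5 CPM in control mice, had a log2 fold change of 0.17 (SE 0.15). *Per3*, at 9.06 to 18.7 CPM in KO and 13.6 to 20.5 CPM in control mice, had one of -0.25 (SE 0.17) at ZT0 and of -0.62 (SE 0.16, adjusted p = 0.562, edgeR) at ZT12. Without KO replicate 2 the ZT0 values of *Per1* and *Per3* were 0.0717 and -0.0755. Leaving out KO replicate 3 instead gave -0.38 for *Per3* (unadjusted p = 0.0449, edgeR). Of the 5 repressor genes, 3 (60%) had an unadjusted p under 0.05 at ZT0, all higher in KO, against 2.66% of all genes. In the fit without KO replicate 3 there were 4, of which *Per3* was lower in KO.

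Among the activators, *Clock*, the partner of Bmal1, was at 11.5 to 14.1 CPM in KO mice and 13.7 to 16.9 CPM in control mice (log2 fold change -0.26, SE 0.15, adjusted p = 0.926, edgeR). The groups overlapped by a narrow margin. *Npas2* and *Arntl2*, paralogs that can stand in for CLOCK and Bmal1 in other tissues, were listed at mean levels of 0.08 and 0.43 CPM in KO and 0.06 and 0.11 CPM in control mice, too low for a fold change to be read.

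The output factors are transcription factors and enzymes through which the clock reaches other genes. *Tef* (chr15:81802421-81826863), a PAR bZIP factor that binds D-box elements, was the only 1 of 13 such genes (7.69%, beside 4.9% of all genes) with an unadjusted p under 0.05 at ZT0. It was at 19.9, 22.0, 25.9 and 23.3 CPM in KO and at 14.3 to 18.1 CPM (median 17.3 CPM) in control mice, and all KO mice were above all control mice. The log2 fold change was 0.44 (SE 0.10, adjusted p = 0.44, edgeR) at ZT0 and -0.32 (SE 0.09) at ZT12, where KO mice were at 20.6 to 23.6 CPM and control mice at 23.02 to 30.5 CPM. This was the smallest p for a difference between the times among the clock genes (0.76, SE 0.14, adjusted p = 0.138 by edgeR and 0.00114 by DESeq2). The level in KO mice was thus within 19.9 to 25.9 CPM at both times, and the control range moved from below it to its upper part and above. *Dbp*, a factor of the same family, was at 5.74 to 10.8 CPM in KO and 3.07 to 7.54 CPM in control mice with a log2 fold change of 0.45 (SE 0.29, adjusted p = 0.926, edgeR). It shares reads with its overlapping neighbour *Sphk2* if strand was not used.

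The remaining output genes at 1 CPM or more overlapped between the groups and had log2 fold changes from -0.27 for *Nfil3*, a repressor at the same D-box elements, to 0.29 for *Usp2*, a deubiquitinase. The E-box repressor genes *Bhlhe40* and *Bhlhe41* had values of 0.08 (SE 0.27) and 0.14 (SE 0.13), and *Ciart*, which represses the Bmal1 and CLOCK pair and was at 0.98 to 3.34 CPM in control mice, had -0.04 (SE 0.36). *Nampt*, an enzyme of NAD synthesis, was at 14.4 to 22.4 CPM in KO and 15.9 to 19.4 CPM in control mice (0.03, SE 0.12), and *Tsc22d3*, which glucocorticoids also induce, had 0.19 (SE 0.21). None of the 11 post-translational regulators, listed as acting on clock proteins, had an unadjusted p under 0.05. The count by adjusted p was 0 as well. Among these *Csnk1d* and *Csnk1e*, kinases of PER, had log2 fold changes of -0.04 (SE 0.09) and 0.08 (SE 0.10), and *Gsk3b*, a kinase of several clock proteins, -0.30 (SE 0.19). *Timeless*, whose protein binds PER and CRY, had the highest value among these at 1 CPM or more (0.82, SE 0.51), with KO replicate 2 below the other KO mice.

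In all, 37 genes of the 5 clock lists were tested and 7 had an unadjusted p under 0.05 (18.9%, against 4.9% of all genes), 4 higher and 3 lower. Of the 37 genes, 4 higher and 3 lower had groups that did not overlap, beside 0.977% of all genes. They were the same 7 genes, and a small p and non-overlap are not independent in the same mice. The median log2 fold change over all 37 was 0.00, since members lay on both sides of 0, beside -0.01 over all genes tested. The lists were chosen with these results in view, so the counts describe them and are no test.

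**Figure D3:**
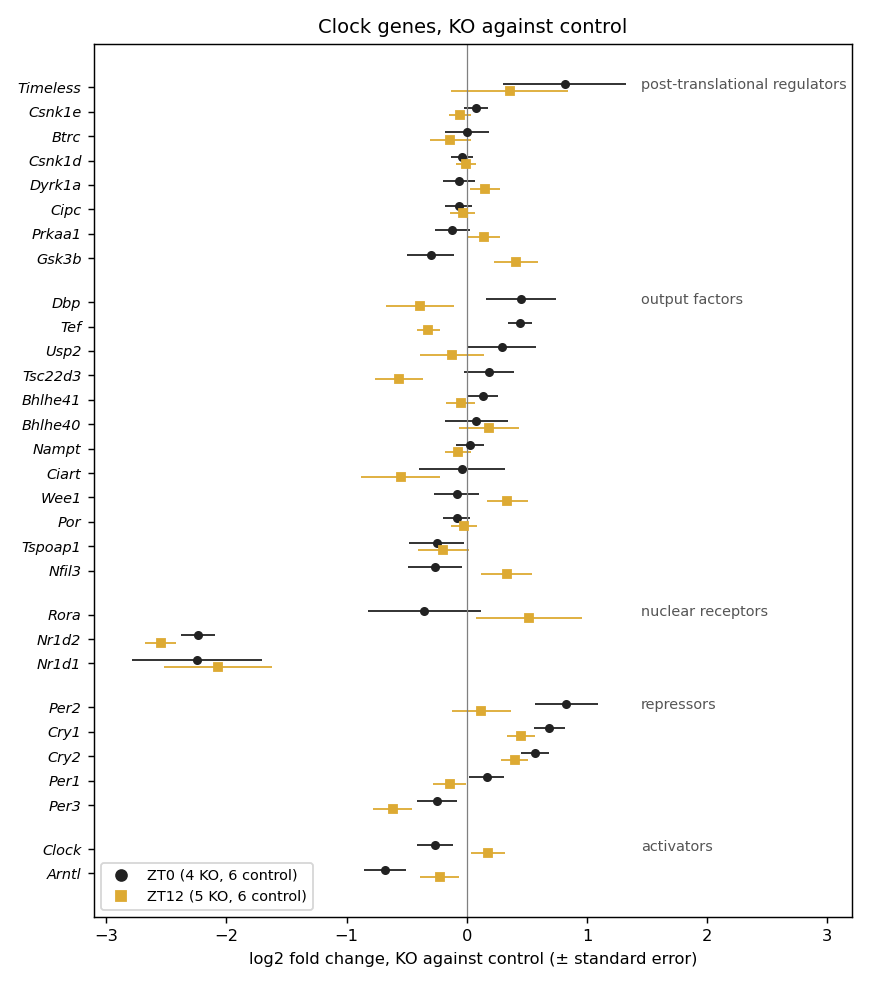
Log2 fold change of KO against control (points) with its standard error (bars) for clock genes with a mean of 1 CPM or more at ZT0, at ZT0 (black circles, 4 KO and 6 control mice) and ZT12 (yellow squares, 5 KO and 6 control mice), grouped by role. *Nr1d1* and *Nr1d2* lie below -2 at both times, *Cry1* and *Cry2* above 0 at both, and *Tef* at 0.44 and -0.32.

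The promoters of *Arntl*, *Cd79a* and the clock genes whose groups did not overlap at ZT0 were read for letters known to be bound by clock proteins. Bmal1 with CLOCK binds CACGTG, the same on both strands. The REV-ERB and ROR receptors bind AGGTCA, or TGACCT on the other strand. The 250 bases before the RefSeq start (GRCm38.p6) are shown for those clock genes that hold such letters, in the direction of the gene, with the motif in capitals. They are *Nr1d2* at chr14:18239107-18239356 on the minus strand, *Cry1* at chr10:85185055-85185304 on the minus strand, and *Tef* at chr15:81802423-81802672 and chr15:81811164-81811413 on the plus strand, 1 window for each annotated start.
Nr1d2: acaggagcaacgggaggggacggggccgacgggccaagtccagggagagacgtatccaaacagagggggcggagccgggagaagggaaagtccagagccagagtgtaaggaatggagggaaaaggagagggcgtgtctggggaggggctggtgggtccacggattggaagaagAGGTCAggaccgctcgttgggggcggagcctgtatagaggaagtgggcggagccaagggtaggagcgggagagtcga
Cry1: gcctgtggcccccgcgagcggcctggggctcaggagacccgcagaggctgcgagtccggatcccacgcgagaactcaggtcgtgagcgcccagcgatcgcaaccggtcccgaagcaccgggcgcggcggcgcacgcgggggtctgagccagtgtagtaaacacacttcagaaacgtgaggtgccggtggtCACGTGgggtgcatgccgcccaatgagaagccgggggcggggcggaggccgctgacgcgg
Tef, first start: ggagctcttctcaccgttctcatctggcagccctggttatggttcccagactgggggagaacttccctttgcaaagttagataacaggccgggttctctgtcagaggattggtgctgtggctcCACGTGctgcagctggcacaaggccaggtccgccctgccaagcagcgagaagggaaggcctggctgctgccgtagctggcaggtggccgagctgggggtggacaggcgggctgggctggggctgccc
Tef, second start: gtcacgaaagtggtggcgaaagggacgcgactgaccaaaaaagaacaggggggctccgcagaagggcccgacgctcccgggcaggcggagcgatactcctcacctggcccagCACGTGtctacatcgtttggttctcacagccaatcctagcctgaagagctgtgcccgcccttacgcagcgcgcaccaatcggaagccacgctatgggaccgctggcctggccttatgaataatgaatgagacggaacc
AGGTCA begins 77 bases before the start of *Nr1d2*. CACGTG begins 60 bases before the start of *Cry1*, and 127 and 138 bases before the starts of *Tef*. Neither motif was found in these windows of *Nr1d1*, *Cry2*, *Arntl* or *Cd79a*, and *Per2* had no window in the table used. Bases after the start used for *Nr1d1* were not found in a transcript of that gene, so its window is uncertain. For *Nr1d2*, *Cry1*, *Cry2* and *Tef* they were found. Some windows, such as that of *Cd79a*, reach into the gene positions given above, and the first of *Tef* lies wholly within them. Outside the clock genes, the window of *Kcnn4*, a potassium channel gene, held CACGTG 133 bases before its start. Of the 39 clock genes listed, 30 had a window, of which 6 held CACGTG and 5 held AGGTCA on either strand. Of 27025 genes with windows, 6.86% held the first and 15.8% the second. A match describes the letters in a window only, and these motifs do not overlap each other.

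Outside the clock, the genes with the smallest p included members of the Cre-bearing chromosome. *Kcnn4* (chr7:24370263-24386690), the gene of a calcium-activated potassium channel that lies at -0.52 Mb from *Cd79a*, was at 208.1, 202.2, 186.2 and 215.9 CPM in KO and at 241.4 to 327.4 CPM (median 287.1 CPM) in control mice. All KO mice were below all control mice, with a log2 fold change of -0.51 (SE 0.11, adjusted p = 0.353 by edgeR and 0.00416 by DESeq2) at ZT0 and of -0.36 (SE 0.10) at ZT12, where the groups overlapped. *Slc1a5* (chr7:16781340-16798274), a glutamine transporter gene at -8.11 Mb from *Cd79a*, was at 176.7, 219.4, 222.3 and 211.6 CPM in KO and at 229.1 to 313.4 CPM (median 268.1 CPM) in control mice. Again the groups did not overlap, at ZT12 too, and the log2 fold changes were -0.36 (SE 0.10, adjusted p = 0.926, edgeR) and -0.42 (SE 0.09, adjusted p = 0.379, edgeR). By DESeq2 the adjusted p of *Slc1a5* was 0.189 at ZT0 and 0.000712 at ZT12. *Numbl*, an adaptor gene 2.37 Mb away, was at 3.68 to 6.38 CPM in KO and 7.64 to 11.02 CPM in control mice (log2 fold change -0.85, SE 0.25, adjusted p = 0.926, edgeR), and at ZT12 its value was -0.24 (SE 0.23).

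Of the 167 other genes tested within 5 Mb of *Cd79a*, 4 were higher and 7 lower at an unadjusted p under 0.05 (6.59% in all), and of the 348 within 10 Mb 12 were higher and 11 lower (6.61%). Between 10 and 20 Mb the share was 8.14%, between 20 and 50 Mb 5.16% and beyond 50 Mb 4.48%, beside 4.9% of all genes. At ZT12 the shares were 13.8% up to 5 Mb, 14.4% from 5 to 10 Mb, 8.14%, 11.1% and 8.32%, beside 8.83% of all genes. The median log2 fold change of the genes within 5 Mb was -0.06.

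**Figure D4:**
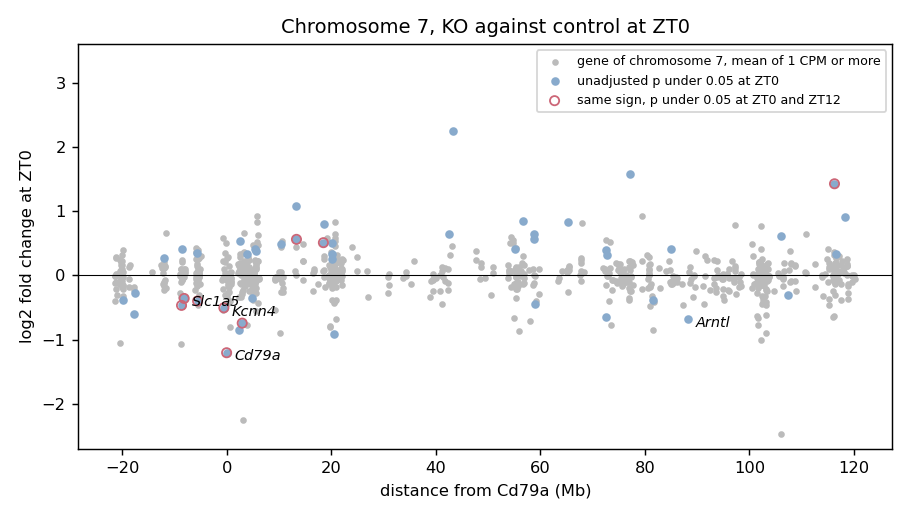
Log2 fold change of KO against control at ZT0 for the 853 genes of chromosome 7 with a mean of 1 CPM or more, by distance of their start from *Cd79a* (Mb). The 47 genes with an unadjusted p under 0.05 at ZT0 are blue, and circles mark the 9 that also had one at ZT12 with the same sign, of which *Cd79a*, *Kcnn4* and *Slc1a5* are named together with *Arntl*.

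The genes at both times give a check in separate mice. Of the 993 genes with an unadjusted p under 0.05 at ZT0, 114 (11.5%) also had one at ZT12, which is 6.37% of the 1789 genes (8.83% of all tested) at that time. Only 41 of the 114 had the same sign at both times and 73 the opposite sign. With a mean of at least 1 CPM, a limit set after the data were seen, there were 26 of 79. The 26 included *Nr1d2*, *Nr1d1*, *Cry1* and *Cry2*, and also *Egln3*, the gene of a prolyl hydroxylase that acts on hypoxia-inducible factors (log2 fold change -1.14 at ZT0 and -0.80 at ZT12), *Rasgrp3*, which couples the B cell receptor to Ras (0.39 and 0.33), and *Siglecg*, an inhibitory lectin of B cells (0.51 and 0.69). Of the 41 genes, 12 lie on chromosome 7, which holds 7.67% of the genes tested, and 6 of these besides *Cd79a* are within 10 Mb of it, such as *Ercc1* (DNA excision repair, -0.40 and -0.47). By the test of the difference between the times edgeR called 0 genes, where 2191 (10.8%) had an unadjusted p under 0.05, and DESeq2 called 4 (0.0279%), of which *Tef* is the clock gene.

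The other genes at the top of the ranking had no adjusted p under 0.05 and include genes of several functions. *Cmtm7*, of a family of membrane proteins, was at 39.6, 42.2, 50.5 and 41.7 CPM in KO and at 31.0 to 35.0 CPM in control mice (0.40, SE 0.10, adjusted p = 0.91, edgeR), with 0.15 (SE 0.10) at ZT12. *Grap2*, an adaptor of antigen receptor signalling, was at 36.2 to 47.8 CPM in KO and 26.6 to 33.8 CPM in control mice (0.47, SE 0.14), with -0.04 at ZT12, and *Entpd6*, a nucleoside diphosphatase gene, at 13.4 to 15.2 CPM in KO and 17.7 to 20.8 CPM in control mice (-0.41, SE 0.11), with -0.08 at ZT12. In these 3 genes the groups did not overlap at ZT0. *Dars* (aspartyl-tRNA synthetase), *AI606181* and *Lrrc28* had log2 fold changes of 0.38, 0.87 and 0.65, with groups that overlapped. *Desi2*, *Diras2* and *Gm35035* (-1.86, -2.75 and 2.61) did not overlap but rest on levels under 5 CPM, and *Gm9922* had 15 counts over the KO mice and 0 over the control mice, at least 7.49-fold higher against a floor of 3 counts over the control group.

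Of the 23 genes of PC identity tested, edgeR called 0, and 1 (4.35%) passed an unadjusted p of 0.05, a share near the 4.9% of all genes. This was *Cxcr4*, a chemokine receptor gene, at 54.2, 17.4, 38.1 and 14.8 CPM in KO and 12.0 to 20.3 CPM in control mice. Among transcription factors of PCs, *Irf4* had a log2 fold change of 0.23 (SE 0.14), *Prdm1* -0.18 (SE 0.12) and *Xbp1* 0.09 (SE 0.11). *Igha*, the heavy chain gene of IgA, had 0.11 (SE 0.13) at ZT0, -0.02 without KO replicate 3, and -0.32 at ZT12 (adjusted p = 0.562, edgeR). Of 20 genes of B cell receptor signalling 2 (10%) had an unadjusted p under 0.05, *Cd79a* and *Vav2*, a guanine nucleotide exchange factor gene at 10.3 to 23.4 CPM in KO and 4.81 to 13.2 CPM in control mice (0.95, SE 0.36). The lists of the unfolded protein response (29 genes), cholesterol synthesis (25), fatty acid synthesis (15), MHC class II (10), redox (20), heat shock (17) and interferon response (24) had 0 members with an unadjusted p under 0.05 by edgeR and 0 with an adjusted p. In cholesterol synthesis 2 of the 25 log2 fold changes were above 0 and the median was -0.15, and in fatty acid synthesis 1 of 15 was, with a median of -0.15. These medians were -0.08 and -0.10 without KO replicate 3 and 0.05 and 0.16 at ZT12.

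Immunoglobulin genes took 53.7%, 53.6%, 59.4% and 53.6% of all counts in the KO mice and 51.5% to 53.3% in control mice, with means of 55.1% ± 2.91 (SD, n = 4) and 52.8% ± 0.72 (SD, n = 6). Each KO mouse was above the highest control mouse (p = 0.00476 by exact permutation of the mice, the smallest possible). Without KO replicate 3 the KO mean was 53.6% ± 0.062 (SD, n = 3) and the p by exact permutation was 0.0952, where the smallest possible is 0.0119. With the constant region genes alone the difference was 1.34 percentage points (p = 0.5 by exact permutation). Of the 212 V genes tested 18 were higher and 8 lower at an unadjusted p under 0.05 (12.3%, against 4.9% of all genes), and these vary strongly from mouse to mouse. *Iglv2*, of the lambda light chain, was at 263.9, 166.1, 3389 and 387.9 CPM in the KO mice and 61.3 to 325.0 CPM in control mice, and *Iglc2*, a lambda constant region gene, at 842.8, 557.2, 4507 and 783.3 CPM in KO and 661.5 to 844.7 CPM in control mice. KO replicate 3 was far above all other mice in both, and without it their log2 fold changes were 0.83 and -0.05 instead of 2.78 and 1.148. *Ighv1-11*, at 6.92, 13.4, 64.0 and 3.43 CPM in KO and 1.73 to 5.13 CPM in control mice, had 2.51 with this mouse and 1.04 without it. V genes of near-identical sequence share reads, so these values are uncertain.

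For some groups of genes KO replicate 3 was far above the other mice. All 76 genes of the cytosolic ribosome had a log2 fold change above 0 at ZT0, with a median of 0.25, but 2 (2.63%) had an unadjusted p under 0.05, *Rpl13a* (0.51, SE 0.19) and *Rpl7a* (0.46, SE 0.21). Their summed level was 19209 CPM in KO replicate 3, 11570 to 13806 CPM in the other KO mice and 10397 to 12676 CPM in control mice. Without that mouse the median was 0.07. At ZT12 it was -0.34, with 30 of the 76 lower at an unadjusted p under 0.05, beside 4.58% of all genes. At that time control replicates 2, 4 and 5 had immunoglobulin shares of 63.6%, 59.5% and 59.1%. The other control mice had 53.3% to 55% and the KO mice 53.7% to 55.7%. *Rps15*, a gene of this list, was at 337, 228 and 211 CPM in control replicates 2, 4 and 5. It was at 146.7, 225.9 and 167.5 CPM in control replicates 1, 3 and 6. How far the ZT12 median rests on control replicates 2, 4 and 5 was not tested. Of 49 nuclear genes of the respiratory chain 46 were above 0 at ZT0 with a median of 0.14, and 0.02 without KO replicate 3. None of the 49 had an unadjusted p under 0.05. The 27 immediate early and dissociation-response genes had a median of 0.22 and summed levels of 12234 CPM in KO replicate 3, 5115 to 7024 CPM in the other KO mice and 4447 to 8767 CPM in control mice, with a median of 0.03 without it. Of these 27 genes *Egr3* and *Nfkbia* were higher and *Dusp2* lower at an unadjusted p under 0.05. The part of RNA quality or of a mixture of cells in that library was not tested.

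A few genes were high in KO replicates 1 and 3 and near the control range in the others. *Bcl2l11*, the gene of the pro-apoptotic protein BIM, was at 487.0, 123.8, 307.8 and 163.3 CPM in KO mice and 100.6 to 156.1 CPM in control mice (log2 fold change 1.11, SE 0.36, adjusted p = 0.926, edgeR). *Egr3*, an immediate early factor induced by receptor signalling, was at 28.0, 9.82, 33.4 and 11.6 CPM in KO and 3.39 to 13.3 CPM in control mice, and *Cxcr4* and *Vav2* had their 2 highest KO levels in the same mice. KO replicates 1 and 3 are also the KO mice with *Xist* above 100 CPM, as are 3 of the 6 control mice. At ZT12 the log2 fold changes of *Bcl2l11* and *Egr3* were 0.05 and -0.49. With the *Xist* level as a covariate they were 1.08 and 1.599 at ZT0. Mice with *Xist* make up a like share of both groups, so this covariate could move a group difference little. It also has no term for a rise limited to KO mice with *Xist*, and the part of sex was not tested. Over all genes, the fit with the *Xist* level as a covariate called *Nr1d2* and *Cd79a*, as the fit without it did.

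Markers of other cell types are given beside the share over all genes, 4.9% at an unadjusted p under 0.05. Of 19 T cell and innate lymphoid genes 1 (5.26%) had an unadjusted p under 0.05, *Cd4*, at 26.5, 14.1, 22.3 and 16.1 CPM in KO and 11.9 to 14.6 CPM in control mice (0.55, SE 0.17), while the summed level of the list was 32.6 to 53.8 CPM in KO and 25.6 to 47.3 CPM in control mice. Of 17 myeloid genes 1 (5.88%) had, *Mrc1*, a macrophage receptor gene at 2.04 to 2.87 CPM in KO and 1.00 to 1.67 CPM in control mice (0.92, SE 0.31, groups not overlapping), with sums of 162.0 to 204.6 CPM in KO and 105.4 to 189.0 CPM in control mice. Of 15 stromal, endothelial and mast cell genes 3 were higher (*Mcpt1*, *Mcpt2* and *S100b*) and 1 lower (*Pdgfra*) at an unadjusted p under 0.05 (26.7%), all under 1 CPM. *Mcpt1* had 12 counts, all from KO replicate 3, against 0 in control mice, which is at least 5.99-fold higher against 3 counts over the control group, and *Pdgfra* had 0 in KO mice against 11 in control mice, at least 2.45-fold lower. Of 30 proliferation genes 27 were above 0, with a median of 0.54, of which 2 higher (*Birc5* and *Tyms*) and 1 lower (*Bub1b*) had an unadjusted p under 0.05 (10%), and their sums of 286.4 to 554.8 CPM in KO and 300.8 to 476.3 CPM in control mice overlapped. The proliferation median was 0.28 without KO replicate 4 and 0.81 without control replicate 6, and without KO replicate 3 the count at an unadjusted p under 0.05 was 0 by edgeR. The 23 epithelial genes had a median of -0.77 and 0 members with an unadjusted p under 0.05, and without control replicate 6 their median was 0.67.

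**Figure D5:**
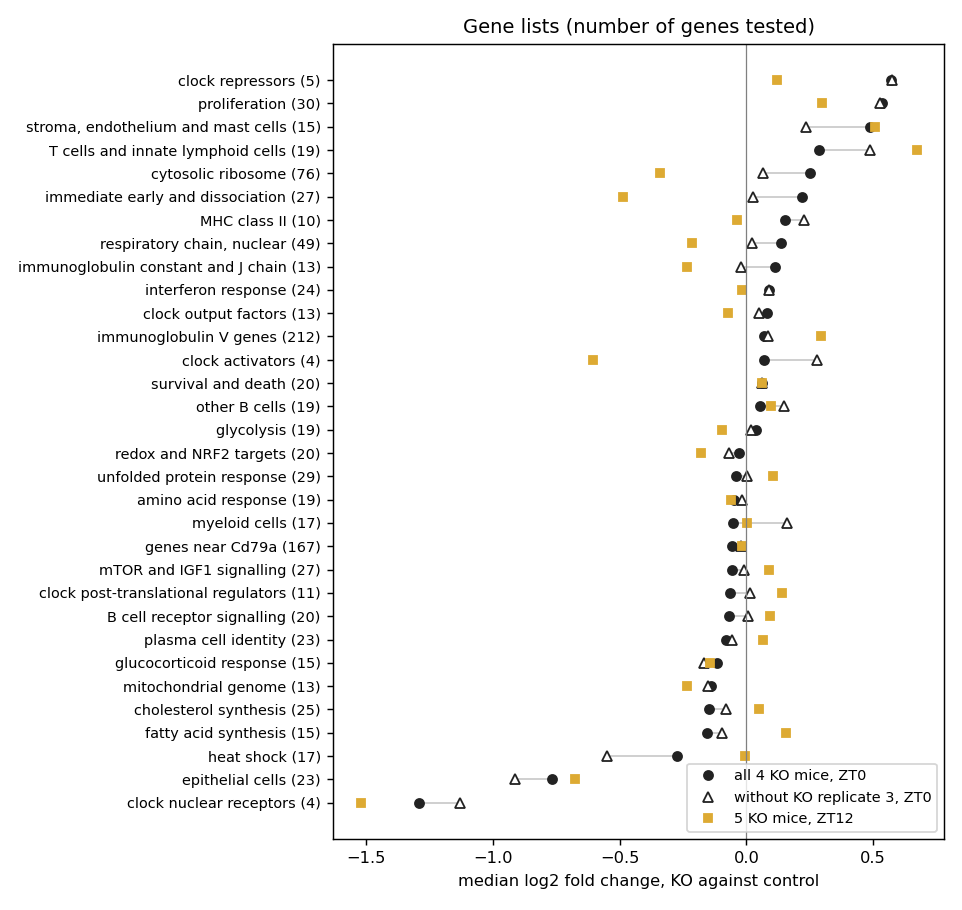
Median log2 fold change of KO against control over the genes tested of each list, with their number in brackets, for all 4 KO mice at ZT0 (filled circles), without KO replicate 3 (open triangles) and for the 5 KO mice at ZT12 (squares). The clock nuclear receptors lie lowest at both times (-1.29 and -1.52), and the cytosolic ribosome goes from 0.25 to 0.07 without KO replicate 3 and to -0.34 at ZT12.

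The remaining lists are given by their members with an unadjusted p under 0.05, beside 4.9% of all genes. They were 2 of 15 glucocorticoid response genes (13.3%), both lower, *Nr3c1*, the glucocorticoid receptor gene, and *Sgk1*, a kinase gene that was at 7.67 to 17.2 CPM in KO and 12.5 to 21.9 CPM in control mice. Of 20 survival and death genes there were 3 (15%), *Bcl2l11*, *Bcl2l1* and *Fas*, and of 19 amino acid response genes 2 (10.5%), *Slc1a5* and *Fgf21*, and without KO replicate 3 there was 1 in each of these lists. Of 19 glycolysis genes there was 1 (5.26%, *Pfkp*, 0.44, SE 0.15), of 27 genes of mTOR and IGF1 signalling 1 (3.7%, *Tsc1*, -0.28, SE 0.13), of 13 mitochondrial genome genes 1 (7.69%, *mt-Nd5*, -0.29, SE 0.14), of 13 immunoglobulin constant and J chain genes 1 (7.69%, *Iglc2*), and of 19 genes of other B cells 0. Without KO replicate 3 the count by edgeR was 0 in the glucocorticoid, glycolysis, mTOR, mitochondrial genome and immunoglobulin constant lists, and the values of *Tsc1* and *mt-Nd5* were -0.16 and -0.16. None of these genes, nor any member of a list other than *Nr1d2* and *Cd79a*, was called by edgeR.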

How the data were processed

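The authors sequenced poly-A selected RNA of sorted IgA+ PCs as paired-end libraries. They deposited 1 table of raw read counts per gene (53801 genes, 21 libraries, described as 1 animal each). The aligner, counting tool, strand setting and genome build are not given in the sources used here. The gene positions in the table matched GRCm38.

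The members and gene lists were chosen with earlier results of these data known. Genes with at least 10 counts in total were kept, as in the study, and 20256 remained. Counts were scaled by TMM and fitted for all 21 mice by genotype and time with edgeR 4.0.16 in R 4.3.3 (quasi-likelihood F test, Benjamini-Hochberg adjustment, threshold 0.05), with DESeq2 1.42.0 as an alternative. Non-overlap means that every KO mouse lay outside the range of the control mice. The share of immunoglobulin genes and single levels were compared by exact permutation of mice. The fits were tested on simulated data. ZT0 and ZT12 comparisons share no mice.

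The genes named are *Arntl*, *Cd79a*, clock genes with a mean of 1 CPM or more, the 10 with the smallest p in each direction, the 3 with the smallest p in each other list and near *Cd79a*, and *Xist* with Y genes. Marker genes of the sorted cells, *Cd79b*, *Thra*, *Mcpt2*, low clock genes and genes shared by both times were named after their values were seen. The alternatives were other scalings, filters, covariates, a replicate block, fewer mice and each mouse left out. All libraries differed by more than sampling noise, and no column was left out. Some list members are not reported here by name.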

Additional observations from a re-analysis of the deposited data

Results flagged for a closer look

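In the 10 mice at ZT0, 305 values in groups of mice were examined for a mouse far from the rest of its group. Of these 34 (11.1%) held one. The cut-off used gives about 1 in 20 for independent, normally distributed values. The values here include low counts and sums that share genes, so that rate is no measure of chance for them. KO replicate 3 accounted for 14 of the 34 and control replicate 6 for 7.

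KO replicate 3 was far above the other KO mice for *Ighv1-11* (64.0 CPM), *Iglv2* (3389 CPM), *Iglc2* (4507 CPM), *Mcpt1* (0.80 CPM), *Nfkbia* (215.1 CPM), *Bcl2l1* (20.5 CPM), *Prdx4* (173.3 CPM), *Sod2* (72.0 CPM), *Sec61b* (216.5 CPM) and *Hsp90ab1* (554.1 CPM). Its summed levels of the respiratory chain (2379 CPM) and redox genes (880.3 CPM) and its immunoglobulin share (59.4%) were also high, and *Prkaa1* (10.6 CPM) was low.

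Control replicate 6 was high for the epithelial genes *Reg3g* (57.2 CPM), *Reg3b* (96.6 CPM) and *Zg16* (5.10 CPM), for the summed epithelial (387.5 CPM) and T cell (47.3 CPM) lists, and low for *Nr3c1* (82.1 CPM) and the summed immunoglobulin constant and J chain genes (373100 CPM). In control replicate 5 the clock genes *Cry2* (20.5 CPM) and *Per2* (10.3 CPM) were the highest of the control group, though below every KO mouse.

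The other mice had fewer such values. Control replicate 2 was high for *Ighv5-12-4* (9.05 CPM), a V gene with 203 counts over the control mice and 0 over the KO mice, at least 45.2-fold lower in KO against a floor of 3 counts over the KO group. The same mouse was low for the summed mitochondrial genome (5213 CPM) and V genes (94110 CPM). *Ifit1* was high in control replicate 1 (0.71 CPM) and in KO replicate 1 (1.099 CPM), which was also high for *S100b* (0.33 CPM) and *Zg16* (2.47 CPM). KO replicate 2 was low for *Timeless* (1.72 CPM) and the summed V genes (110000 CPM) and high for the summed unfolded protein response genes (25860 CPM), and KO replicate 4 was high for the summed T cell list (53.8 CPM).

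The effect of genotype on *Tef* differed between the times by 0.76 on the log2 scale (adjusted p = 0.138 by edgeR and 0.00114 by DESeq2).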

How the results depend on the processing

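*Nr1d2* and *Cd79a* were called at ZT0 under every alternative run. The count of 2 called genes became 5 with DESeq2, 5 with the ZT0 mice alone, 22 with DESeq2 on those mice and 4 with a gene length trend removed, and 2 to 3 when single mice were left out. At ZT12 the count of 3 became 8 with DESeq2 and 2 to 4 with single mice left out, and for the difference between the times 0 became 4 with DESeq2 and 0 to 1, with 1 only without control replicate 1 at ZT12. The 993 genes with an unadjusted p under 0.05 at ZT0 became 633 under edgeR's own expression filter, 485 without KO replicate 3 and 1383 without KO replicate 2. *Arntl* passed the threshold only with DESeq2 on the ZT0 mice (-0.68), and its value was -0.84 to -0.61 with single mice left out. The immunoglobulin share differed by 2.23 percentage points, by 1.34 with constant region genes and by 0.78 to 2.74 with single mice left out, lowest without KO replicate 3. No pairing of the mice by replicate number was seen, as same-numbered deviations correlated at 0.205, -0.0287, 0.126 and -0.261. So few pairs cannot exclude it. With the replicate block 2 genes were called at ZT0.

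List medians also moved. The expression filter gave -0.46 for clock activators (-0.46 to 0.42 with single mice left out) and -2.23 for nuclear receptors. With the immunoglobulin share as a covariate the medians were -1.04 for nuclear receptors, -0.0866 for immunoglobulin constant genes, -0.0932 for redox genes, 1.08 for stroma and -0.0182 near *Cd79a*, and with immunoglobulin genes removed -0.0727 for the constant genes. Library size alone gave -0.0836 for redox genes and -0.10 near *Cd79a*, and the length trend gave -0.0872 for redox genes. The replicate block gave 0.0796 for glucocorticoid and 0.75 for epithelial genes, with the length trend as well 0.69 for epithelial genes and -0.0166 near *Cd79a*, and the epithelial covariate gave 0.0856 for glucocorticoid genes. With single mice left out the ranges were -0.0221 to 0.37 (immunoglobulin constant), -0.51 to 0.23 (other B cells), -0.24 to 0.40 (MHC class II), -0.27 to 0.13 (glucocorticoid), -1.30 to 0.67 (epithelial), -0.44 to 0.58 (T cells), 0 to 0.63 (stroma) and -0.0572 to -0.0152 (near *Cd79a*).

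Of 115 named genes 13 changed sign somewhere, of which *Iglc2* alone had an unadjusted p under 0.05. The replicate block, epithelial covariate and block with length trend gave 3.38, 0.53 and 3.35 for *Reg3g* and 3.02, 0.54 and 2.94 for *Reg3b*. The immunoglobulin covariate gave 0.0040 for *Prkaa1*, 0.0565 for *Rora*, 0.0528 for *Dyrk1a* and 0.0205 for *Wee1*. Library size alone gave -0.0189 for *Nampt* and -0.0373 for *Btrc*, for which the block gave -0.0241 and the epithelial covariate -0.0077. With single mice left out the ranges were -0.0524 to 1.44 (*Iglc2*), -2.80 to 2.95 (*Reg3g*), -2.56 to 2.21 (*Reg3b*), -0.20 to 0.0521 (*Prkaa1*), -0.16 to 0.0153 (*Cipc*), -0.14 to 0.0021 (*Dyrk1a*), -0.0641 to 0.0109 (*Csnk1d*), -0.26 to 0.0059 (*Wee1*), -0.10 to 0.23 (*Bhlhe40*), -0.0786 to 0.13 (*Nampt*), -0.32 to 0.20 (*Ciart*) and -0.0538 to 0.0468 (*Btrc*). The cause was not tested for any of these. The window of 10 Mb and the minimum of 1 CPM for genes at both times were chosen after seeing the data.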
